A study of Mus musculus with 6 samples.

Results

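The transcriptome of resting epididymal white fat was described in the 3 control libraries of a series of 6, with no comparison to the other 3. The libraries came from mice 5, 6 and 10, labelled ctrl. All 3 were male wild type C57BL/6N mice kept at 22 to 24 °C on a 12 h light cycle with free access to food and water. The protocol text gives an age of 20 weeks and does not say whether the control animals were housed alone. One fat pad sample per animal was frozen whole, so every library is a separate mouse and holds all cell types of the depot. From 100 ng of poly-A RNA, direct cDNA was sequenced on an Oxford Nanopore device, without PCR. The authors deposited whole-number read counts per annotated transcript, and how reads that fit several transcripts were counted is not stated. The counts of 2 files per mouse (X1 and X2) were summed. Values for the mice are given in the order 5, 6 and 10, and errors are the SD over these 3 mice unless another error is named.

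White adipocytes store triglyceride in a single large droplet that is coated by perilipin proteins. They take up fatty acids released from blood lipoproteins by lipoprotein lipase, make some fatty acids themselves, and release them again by lipolysis. The depot is also an endocrine organ that secretes adipokines, and it holds vessels, fibroblasts, mesothelium and immune cells beside the fat cells. Most mouse genes are annotated with several transcripts that differ in start site, exons or polyadenylation site, and long reads can span a whole transcript.

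The libraries held 939107, 1341592 and 1134875 reads. Of these, 99.7% fell on transcripts found in GENCODE M21, an annotation of the mouse genome build GRCm38. Levels are given as CPM, a gene's reads scaled to the same total of gene reads in each library. A single read was worth 1.07, 0.748 and 0.884 CPM, and a gene without a read may have had up to 3.20, 2.24 and 2.65 CPM (3 reads). Between 16997 and 17481 genes had a read in each mouse, 20449 in any mouse and 14411 in all 3. Intervals and floors cover counting error only.

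The 4 most abundant genes were Car3, Fabp4, Scd1 and Cfd. Car3 (ENSMUSG00000027559.5, chr3:14863512-14872523), the carbonic anhydrase of fat and slow muscle, had 23675, 24381 and 23107 CPM (mean 23721 ± 638). Fabp4, the fatty acid carrier of the adipocyte cytosol, had 16399, 18891 and 19813 CPM. Scd1, the desaturase that makes oleate from stearate, had 16062, 20228 and 12760 CPM, the widest range among the first 4 genes. Cfd, the secreted complement factor adipsin, had 15488, 16501 and 14675 CPM. Each of these 4 genes stood above every other gene in every mouse, and the order of Fabp4, Scd1 and Cfd was not the same in the 3 animals.

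The genes next in rank were mitochondrial mRNAs and further adipocyte genes. Lpl, which encodes lipoprotein lipase, had 9000, 10242 and 9204 CPM. Gsn, the actin-severing protein gelsolin, had 8518, 7591 and 9024 CPM. Apoe, an apolipoprotein, had 6483, 7175 and 5532 CPM, and Dbi, which binds acyl-CoA, had 5426, 6203 and 6433 CPM. Retn, the adipokine resistin, had 4516, 5826 and 5568 CPM, with mouse 5 lowest. Adipoq, the adipokine adiponectin, had 3674, 3048 and 3637 CPM, with mouse 6 lowest. Cidec, which promotes the fusion of lipid droplets, had 3335, 3957 and 3777 CPM. Of the 25 most abundant genes, 22 were among the first 25 in every mouse. Their coefficient of variation between mice had a median of 8.67%. It was lowest, at 1.04%, in Fth1, the ferritin heavy chain, and highest in Hba-a2, an alpha globin.

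**Figure D1:**
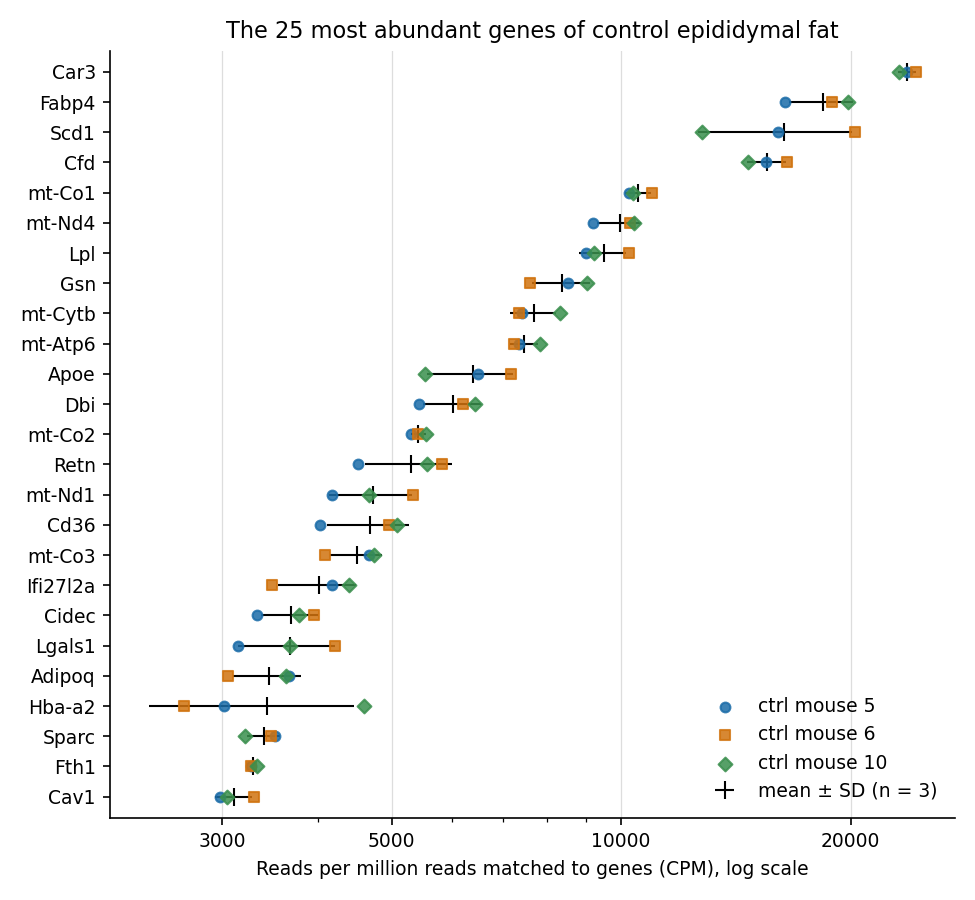
CPM (horizontal, log scale) of the 25 most abundant genes in ctrl mice 5, 6 and 10; black bars give the mean and SD over the 3 mice. Car3 leads in every mouse, and Scd1 (12760 to 20228 CPM) and Hba-a2 (2673 to 4604 CPM) spread most.

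A small number of genes carried much of the RNA. The 25 most abundant genes held 19.3% ± 0.753 of the gene reads, the first 10 held 12.7% ± 0.546, and Car3 alone held 2.37% ± 0.0638. The first 100 genes held 31.3% ± 0.767. The genes needed for 50% of the reads numbered 473, 434 and 427, and 90% needed 5453, 5298 and 5279 genes. A mean of at least 1000 CPM was reached by 103 genes, 100 CPM by 1668 and 10 CPM by 9481. These levels are read counts and are not divided by length. On a scale of reads per kb of annotated transcript, the first 3 genes were Fabp4, Cfd and Car3, Scd1 ranked 26 and Lpl 36, and 16 of the 25 genes stayed among the first 25. On that scale the first 25 genes held 26.2% of the signal.

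Lists of marker genes were summed in the labelled tissue. The lists were chosen with earlier results of these data known, so their sums are not an independent check of the tissue. The 14 markers of mature adipocytes summed to 73380, 78535 and 77235 CPM, and 13 of them were at or above 100 CPM. This list holds Car3, Fabp4 and Cfd, which were among the most abundant genes, and its median member had 1510 CPM. Markers of other cells of the depot were present at lower sums. The 12 markers of adipocyte precursors and fibroblasts summed to 3338 ± 686 CPM, led by Dcn, the matrix proteoglycan decorin. The 12 macrophage markers summed to 1551 ± 184 CPM, and the 11 endothelial markers to 1286 ± 51.5 CPM. Vessel wall markers (pericyte and smooth muscle, 9 genes) summed to 701 ± 37.6 CPM. The T cell, NK cell and neutrophil lists summed to 20.5 ± 3.03, 14.4 ± 3.26 and 15.6 ± 9.43 CPM, with no member at 10 CPM or more. In bulk tissue, fewer cells of a type and less RNA per cell cannot be told apart.

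Markers of the epididymis and of brown fat were low. The 11 markers of epididymal epithelium summed to 3.14 ± 0.872 CPM, with 5 at 0 in all mice. The 9 sperm and germ cell markers summed to 31.8 ± 6.87 CPM, most of it Odf2, named for a sperm tail protein, at 34.2, 22.4 and 20.3 CPM. Of the 9, 7 were seen, 2 of them in all mice, and only Odf2 reached 10 CPM on average. The 6 brown adipocyte markers summed to 17.3 ± 2.58 CPM, with 4 seen and only Cox7a1, a cytochrome oxidase subunit, at 10 CPM or more on average. Of that list, Ucp1, the uncoupling protein of brown fat, had 1 read in mouse 5 and none in mice 6 and 10. Red cell genes were abundant. The erythrocyte list summed to 6350, 5333 and 9331 CPM, highest in mouse 10, with Hba-a2 at 3020, 2673 and 4604 CPM. Mesothelial markers summed to 216, 71.8 and 196 CPM, lowest in mouse 6. B cell and plasma cell markers summed to 1242, 776 and 673 CPM, highest in mouse 5. The part of these differences in other genes' levels was not tested.

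**Figure D2:**
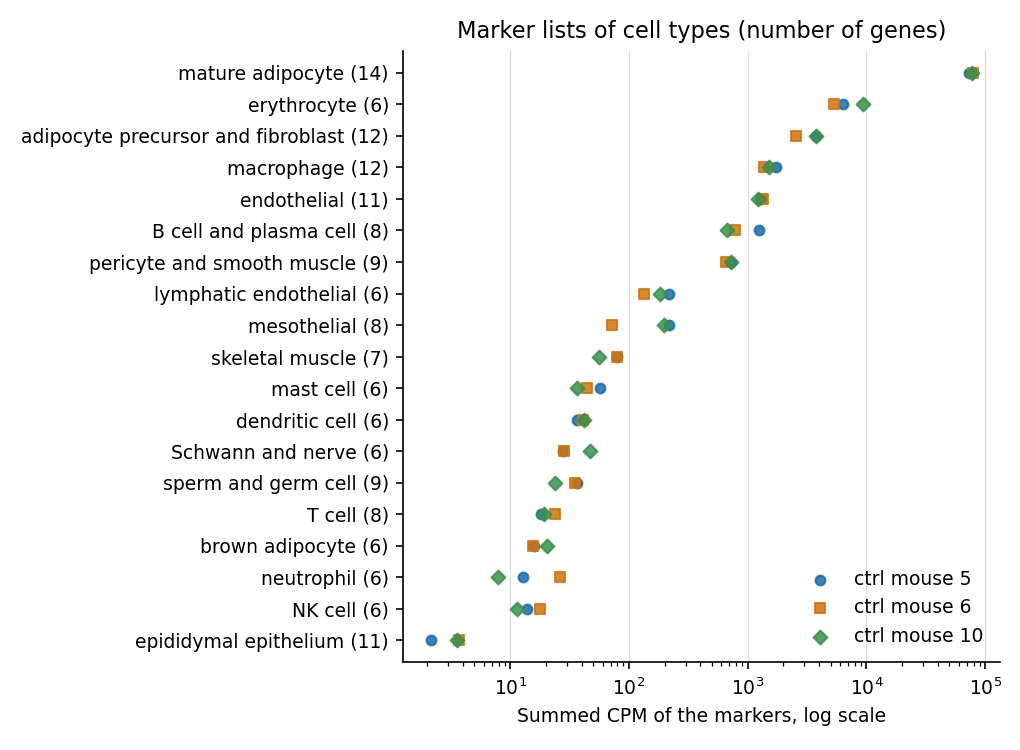
Summed CPM (horizontal, log scale) of each list of cell type markers in ctrl mice 5, 6 and 10, with the number of genes in parentheses. The adipocyte list (73380 to 78535 CPM) stands above all others, and the mesothelial list shows mouse 6 (71.8 CPM) apart from mice 5 and 10.

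Lipid handling filled the metabolic lists. The 16 genes of fatty acid uptake and binding summed to 46590 ± 3637 CPM. Among them were Cd36, the fatty acid translocase, at 4031, 4959 and 5087 CPM, Acsl1, which activates fatty acids, at 835, 1178 and 1113 CPM, and Slc27a1, a fatty acid transporter, at 253, 305 and 272 CPM. Mouse 5 had the lowest value of all 3 genes. The 18 lipogenesis genes summed to 20996, 24186 and 16346 CPM, most of it Scd1. Fasn, which builds palmitate, was at 1172, 833 and 705 CPM. Me1, the malic enzyme that supplies NADPH, had 414, 309 and 236 CPM. Acly, which makes cytosolic acetyl-CoA from citrate, had 258, 188 and 165 CPM. These 3 genes were highest in mouse 5, whereas Scd1 was highest in mouse 6.

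Storage and release of triglyceride were represented by the same few leaders in each mouse. Dgat2, which adds the last acyl chain, had 2528, 2483 and 1918 CPM, against 180, 234 and 178 CPM for Dgat1, which catalyses the same step. Pck1, which feeds glycerol synthesis from pyruvate, had 1253, 966 and 1403 CPM. Plin1, the perilipin of large droplets, had 1782, 1701 and 1659 CPM. The lipases Pnpla2 and Lipe, which remove the first and the second acyl chain, had 1245 ± 90.1 and 1306 ± 35.4 CPM. Mgll, the monoglyceride lipase, had 1221 ± 118 CPM. Adrb3, the adrenergic receptor of rodent adipocytes, had 987, 671 and 1234 CPM, with mouse 6 lowest. The 18 genes of beta-oxidation summed to 3401 ± 132 CPM, and Cpt1b, the muscle form of the carnitine transferase, had 0, 2 and 2 reads.

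Secreted products and regulators completed the adipocyte's own RNA. The 19 adipokine genes summed to 45948 ± 1590 CPM. Lep, the satiety hormone leptin, had 418, 489 and 407 CPM, and Rbp4, the retinol carrier, had 1269 ± 89.6 CPM. Nnat, an imprinted gene that encodes neuronatin, had 2705, 1789 and 2989 CPM, with mouse 6 lowest. Of the 13 transcription factors, Cebpa led with 684 ± 18.7 CPM and Pparg, the master regulator of adipogenesis, had 214, 199 and 231 CPM. The thermogenic list of 14 genes summed to 86.3 ± 8.78 CPM, 3 of its members reached 10 CPM, and 4 had no read.

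Protein-coding transcripts took most of the reads. GENCODE gives every transcript a type, and 89.6% ± 0.263 of the reads (89.5%, 89.9% and 89.4%) lay on the type protein_coding, which makes up 41.5% of the annotated transcripts. Retained-intron transcripts, which keep an intron of a coding gene, took 3.54% ± 0.135. Processed transcripts, which lack an open reading frame, took 1.97% ± 0.0449, and nonsense-mediated decay transcripts, whose early stop codon marks them for degradation, took 1.72% ± 0.0116. Long intergenic RNAs took 1.08% ± 0.0669 and antisense RNAs 0.599% ± 0.00647. Only 5 of the 34 types seen held 1% or more. Counted by the type of the gene instead, protein-coding genes took 96.1% ± 0.108. Within protein-coding genes, 93.2% of the reads were on coding transcripts, 3.62% on retained introns and 1.79% on decay transcripts. Transcripts tagged incomplete took 1.14% of the reads and are 12.5% of the annotation.

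**Figure D3:**
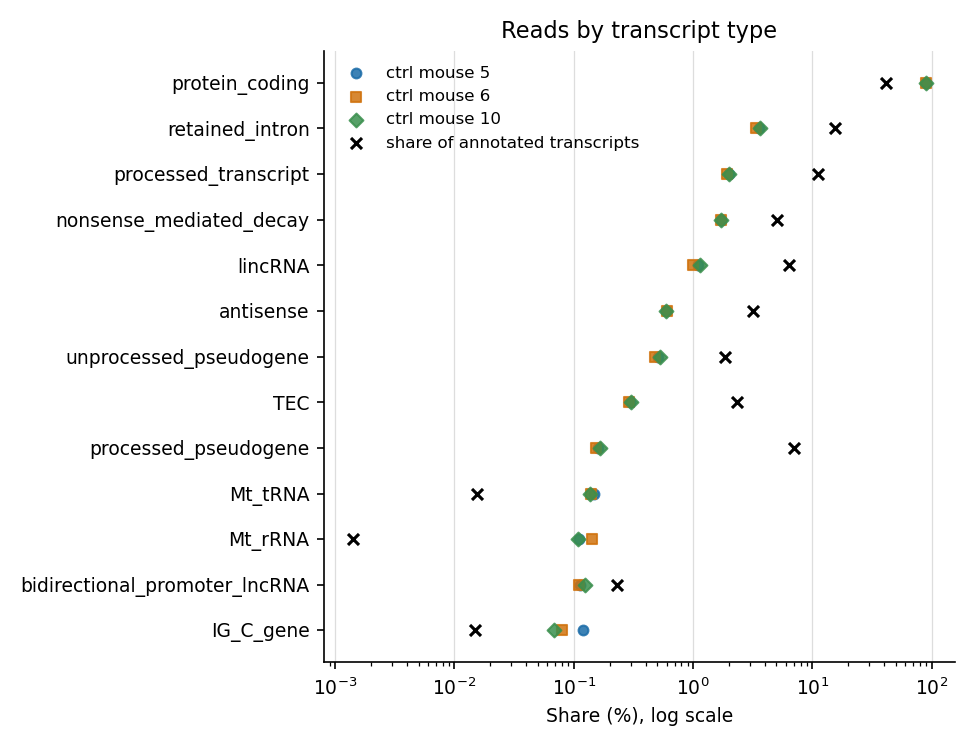
Share of the reads (coloured points, 1 per ctrl mouse) and share of the annotated transcripts (crosses) for each transcript type with at least 0.05% of the reads, on a log scale. Reads exceed the annotation share for protein_coding (89.6% against 41.5%) and for the mitochondrial and immunoglobulin types, and fall below it for the other types drawn.

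Within the smaller types, single genes took large parts. Fabp4-202, a retained-intron transcript, took 7.19% of all retained-intron reads and 13.8% ± 1.26 of the reads of Fabp4. Slc1a5-202, of a glutamine transporter gene, took 2.81% of the retained-intron reads. Lars2-209, of the mitochondrial leucyl-tRNA synthetase gene, took 3.37% of the decay reads. Among long intergenic RNAs, Bc1, a short brain-enriched RNA with polymerase III origin, had 1376, 1121 and 1957 CPM. Of its 168 bases, 57.1% match Cnot3 at 96.9% identity. Similar parts of it match Elp6 and Slc52a2 on the opposite strand. How reads of such shared sequence were counted is not stated, so the level of Bc1 is uncertain. Malat1 and Neat1, nuclear RNAs, had 1464 ± 141 and 1317 ± 234 CPM. The 20771-base transcript Neat1-201 was given 78.3% ± 1.26 of the Neat1 reads and the 3004-base Neat1-202 was given 21.4% ± 1.18. The antisense type was led by Gm17494, with 36.3% of its reads. In that transcript 40.8% of the length matches Ppia, the abundant cyclophilin A gene, on the opposite strand at 99.6% identity. The counts do not say whether strand was used.

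Counted by the type of the gene, pseudogenes took 1.19% ± 0.0502 of the reads, and most of these lay in close matches to other genes. Some of their transcripts, such as Gpx4-ps2-202, are of the type processed transcript. The reads of these are also part of the share given for that type above. Of 59 pseudogenes at 10 CPM or more, 36 matched a gene that is not a pseudogene at 95% identity or more over at least 50% of their length. Matches on either strand and to genes of any level were counted. Among them, Rps26-ps1 (390 CPM) matched Med21 (43.3 CPM) on the opposite strand. These 36 held 86.9% of all pseudogene reads. Copies of mitochondrial genes numbered 9 and held 42.0%. Gm29216 (chr1:24615706-24616197), which is 99.8% identical to mt-Co1 over 98.2% of its length, had 2870, 2662 and 3011 CPM, beside 10529 ± 404 CPM for mt-Co1. Gm10925, identical to mt-Atp6 over its whole length, had 896 ± 32.1 CPM beside 7468 ± 322. Gpx4-ps2 had 1069 ± 49.3 CPM, above the 615 CPM of its parent Gpx4, an antioxidant peroxidase. Rps13-ps1 had 446 CPM, above the 85.1 CPM of the ribosomal protein gene Rps13. Levels of such parents and copies are uncertain, since the division of reads between them depends on the unstated counting. The same holds for Hba-a2 and Hba-a1, which are 99.8% identical and had 3432 and 91.6 CPM.

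Mitochondrial genes held 5.97% ± 0.179 of the gene reads. The 13 mitochondrial mRNAs summed to 55061, 57514 and 58587 CPM. The highest were mt-Co1, a cytochrome oxidase subunit, at 10241, 10991 and 10356 CPM and mt-Nd4, a complex I subunit, at 9194, 10271 and 10396 CPM. The ribosomal RNAs mt-Rnr2 and mt-Rnr1 had 938 ± 167 and 264 ± 25.1 CPM. Of the mitochondrial tRNAs, 19 of 22 were seen, and mt-Ts1 alone, at 812 ± 112 CPM, held 57.5% of their reads. Its gene lies on the strand opposite to mt-Co1 and shares 3 bases with it.

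Most genes were read mainly as 1 transcript. Transcript usage was described in the 2833 genes with at least 2 annotated transcripts and at least 50 reads in every mouse, which held 68.5% of the gene reads. The dominant transcript, the one with the most reads, took a median of 81.1%, 81.4% and 80.4% of the reads of its gene (mean 81.0% ± 0.5). The middle 50% of genes lay between 58.3% and 97.0%. A share of at least 90% was reached by 38.6% ± 0.634 of genes, and 15.5% ± 0.187 had a dominant share under 50%. Genes had a median of 6 annotated transcripts, of which 3 were seen per mouse and 4 in the 3 mice together. When each gene was thinned to 50 reads, the median number of transcripts seen was 2.72, 2.61 and 2.74 (mean 2.69 ± 0.0675). In all, 12670 of the 19137 annotated transcripts of these genes had a read.

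The dominant share fell as the annotation grew. Its median was 99.3% in the 322 genes with 2 annotated transcripts, 91.0% in the 1035 genes with 3 to 5, 73.0% in the 1064 genes with 6 to 10 and 50.2% in the 412 genes with 11 or more. Each mouse showed the same order of the 4 classes. The 25% of genes with the lowest levels had a median of 76.8% and the 25% with the highest levels 85.5%. The dominant transcript was of the type protein_coding in 96.5% of genes, and in 87.4% of 2793 protein-coding genes it was the principal transcript named by APPRIS, a database of main splice forms. It was the longest annotated transcript in 61.9% of genes.

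**Figure D4:**
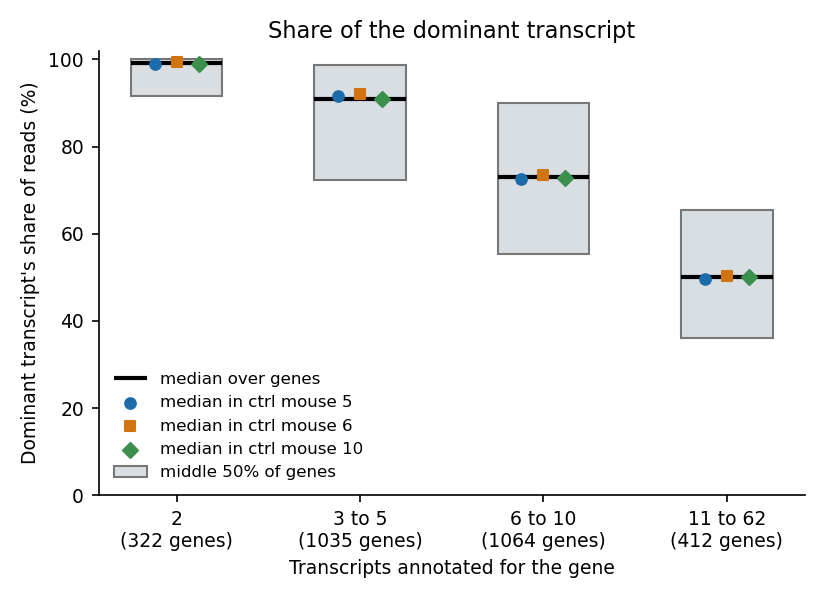
Share of a gene's reads on its dominant transcript (vertical, %) for genes grouped by the number of annotated transcripts; grey boxes span the middle 50% of genes, black lines give the median and coloured points the median in each ctrl mouse. The median falls from 99.3% to 50.2% while the 3 mice stay close to each other.

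The same transcript was dominant in all 3 mice in 2548 of the 2833 genes (89.9%). In the 285 other genes the first and second transcript were close, with a median gap of 5.38 points against 74.1 points in the genes that kept their dominant transcript, and 44 of the 285 had a gap over 10 points. The X1 file of a mouse and the X2 file of the same mouse named the same dominant transcript in 94.4% to 95.2% of 1192 genes, and files of different mice did so in 94.4% to 95.8%.

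Several adipocyte genes were read as more than 1 major form. Pparg had 42.0%, 37.2% and 36.8% of its reads on Pparg-201, whose 1515-base coding sequence encodes the adipocyte form PPARgamma2 with its longer amino end. The other 58.0%, 62.0% and 63.2% lay on 2 transcripts with the shorter 1425-base coding sequence of PPARgamma1. Gsn was read mostly as Gsn-201 (87.3% ± 0.288), which encodes the secreted plasma form, and 12.5% ± 0.302 lay on Gsn-205, which encodes the cytoplasmic form. Cav1, the coat protein of caveolae, was split between a 441-base (52.6% ± 0.846) and a 534-base coding sequence (47.3% ± 0.873). These are the shorter beta and the longer alpha form. Lipe had 53.5% ± 0.227 on its 2277-base and 39.7% ± 0.772 on its 2406-base coding sequence, and 5.88% ± 0.864 on the longest, of 3216 bases. The shares of Gsn, Cav1 and Lipe moved by less than 2 points between mice. Those of Pparg, a gene with fewer reads, moved further, and the part of counting error in this was not tested.

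Other genes were split among transcripts that encode the same protein. Cd36 had 29.5% ± 0.121 of its reads on Cd36-204, 24.7% on Cd36-201, 22.4% on Cd36-203 and 19.1% on Cd36-202. These 4 and another transcript share a 1416-base coding sequence and took nearly all reads of the gene. Cidec was split 64.5% to 33.9% between 2 transcripts with a 717-base coding sequence. Dcn was split 54.3% to 45.4% in the same way. Emp1, a membrane protein gene, had 76.6% ± 1.38 of its reads on 3 transcripts with 1 coding sequence and 22.9% ± 1.40 on a decay transcript. Ly6e, a membrane-anchored antigen, had 90.6% ± 1.23 of its reads on 7 transcripts with 1 coding sequence.

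Genes with a low dominant share were few. Of 1386 genes with at least 100 reads in every mouse, 93 had a mean dominant share under 40%. Psap, which encodes the lysosomal saposins, was spread over 5 transcripts, from 24.8% ± 0.432 down to 16.8% ± 2.11, with coding sequences of 1653 to 1671 bases. Gnas, which encodes the stimulatory G protein of the adrenergic signal, had 36.0% ± 4.27 on Gnas-202 and 18.5% ± 2.17 on Gnas-207. Its transcript Gnas-203, with the 3357-base coding sequence of the extra-large form, took 11.5% ± 0.411. Myl6, a myosin light chain, had 36.9% ± 2.15 on Myl6-201 and 14.8% ± 0.611 on Myl6-206. The genes with the most transcripts at 50 reads were Mtch1 (11.2), Smarca2 (11.1), Acin1 (11), Eif4g1 (10.9) and Macf1 (10.9). They encode a mitochondrial outer membrane protein, a chromatin remodeller, a nuclear RNA-processing factor, a translation initiation scaffold and a cytoskeletal linker.

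In 60 of the 2793 protein-coding genes (2.15%) the dominant transcript was not a coding one. H2-K1, a class I antigen-presenting molecule, had 42.6%, 45.0% and 44.0% on a retained-intron transcript. Rsrp1, a splicing-related gene, had 44.5%, 46.0% and 41.6% on one. Srsf5, a splicing factor, had 37.5%, 36.2% and 32.0%. Hoxc8, a developmental transcription factor, had 69.5%, 69.1% and 66.9%. Slc27a1 had 36.4% ± 2.33 and 26% ± 4.96 of its reads on 2 retained-intron transcripts, above its main coding transcript at 24.8% ± 2.40. In Lars2 the decay transcript Lars2-209 and the coding Lars2-201 had 481 and 481 reads in mouse 5, 1098 and 1048 in mouse 6, and 462 and 454 in mouse 10. The Ulk4 transcript with most reads, Ulk4-210, lies wholly within the exons of Ctnnb1 on the other strand, so its reads cannot be told apart from those of Ctnnb1 without strand. Likewise Fam221b-202, the retained-intron transcript of Fam221b, holds sequence of Serf2, a gene elsewhere in the genome.

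In 1878 genes the second transcript took at least 5% of the reads. The pair differed in the first intron in 414 genes, of which 211 kept the same coding sequence. One transcript was shorter at an end in 310 genes, 1 exon was skipped in 275, an intron was kept in 172, the last intron differed in 98, only the ends differed in 25, and 584 had other or several intron differences. Over all 1878, 20.4% of pairs had the same coding sequence, 34.5% had a transcript that was not coding and 45.2% had different coding sequences. The second share was divided by the mean of the largest share in each mouse. This ratio had a median of 0.569 in pairs that differed in at most 50 bases. In pairs that differed in over 1000 bases it was 0.289. Assignment of a read to 1 of 2 nearly identical transcripts rests on few bases, and its error rate was not tested.

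Single coding exons were described from the counts of annotated transcripts, not from reads seen to cross the exon. Among the 275 pairs with a skipped exon, 64 were kept. In these both transcripts were of the type protein_coding and at 15% or more in every mouse, and the exon was wholly coding and at most 150 bases long. Exons that hold the first or last coding base were left out. Pairs on a chromosome that was set aside were left out too, so the 64 do not cover the whole genome. In 57 of the 64 the exon length was a multiple of 3, which keeps the reading frame. The 65 of the 275 pairs with a transcript of another type were left out by the choice of type. The 57 of 64 therefore holds for pairs of coding transcripts only and does not describe skipped exons in general. Inclusion is the reads of all transcripts of the gene that carry the exon with both neighbouring introns, as a share of these reads and those of all transcripts that skip it by joining the neighbouring exons. It ran from 21.5% to 82.9%, a range bounded by the limit of 15%, with a median SD between mice of 3.65 points. The 10 exons below were chosen after their values were seen, for short length and known genes, to show the sequence that is kept or skipped. Each is given 5′ to 3′ on the transcribed strand of GRCm38, with the exon in capitals and the 12 bases of the neighbouring exons on each side in lower case.
Acly (chr11:100503160-100503189, - strand, 30 bases): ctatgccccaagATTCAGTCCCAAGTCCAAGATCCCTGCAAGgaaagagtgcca
Vegfa (chr17:46020991-46021122, - strand, 132 bases): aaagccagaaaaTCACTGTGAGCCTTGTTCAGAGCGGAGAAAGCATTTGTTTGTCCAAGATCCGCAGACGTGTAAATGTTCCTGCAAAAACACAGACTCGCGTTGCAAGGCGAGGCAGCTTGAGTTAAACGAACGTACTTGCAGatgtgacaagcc
Anxa6 (chr11:54987051-54987068, - strand, 18 bases): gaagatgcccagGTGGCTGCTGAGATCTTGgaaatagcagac
Ndrg2 (chr14:51911086-51911127, - strand, 42 bases): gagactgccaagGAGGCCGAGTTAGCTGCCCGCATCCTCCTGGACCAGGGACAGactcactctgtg
App (chr16:84971408-84971461, - strand, 54 bases): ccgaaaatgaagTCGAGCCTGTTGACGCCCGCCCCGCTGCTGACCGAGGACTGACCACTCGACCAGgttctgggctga
Rtn3 (chr19:7467811-7467867, - strand, 57 bases): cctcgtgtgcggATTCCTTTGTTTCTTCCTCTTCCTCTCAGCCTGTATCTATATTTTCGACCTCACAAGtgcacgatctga
Sh3glb2 (chr2:30346059-30346073, - strand, 15 bases): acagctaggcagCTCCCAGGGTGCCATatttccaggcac
Eif4h (chr5:134624441-134624500, - strand, 60 bases): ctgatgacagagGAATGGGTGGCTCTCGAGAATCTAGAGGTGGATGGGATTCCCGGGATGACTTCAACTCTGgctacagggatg
Glb1l2 (chr9:26797045-26797092, - strand, 48 bases): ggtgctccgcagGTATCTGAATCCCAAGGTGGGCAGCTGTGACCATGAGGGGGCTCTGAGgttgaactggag
Art3 (chr5:92405944-92405979, + strand, 36 bases): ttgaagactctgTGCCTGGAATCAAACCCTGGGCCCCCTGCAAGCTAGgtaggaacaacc

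Acly, the lipogenic enzyme named above, included its 30-base exon in 52.1%, 56.2% and 54.3% of reads. Vegfa, the endothelial growth factor, included its 132-base exon, which encodes the heparin-binding part, in 58.0%, 62.9% and 55.3%. Anxa6, a membrane-binding annexin, included its 18-base exon in 55.8%, 55.4% and 53.7%. That both forms were common in every mouse follows from the choice of exons, since each form had to hold 15% or more. Ndrg2, a stress-responsive gene, had 77.2%, 69.1% and 76.3%, the largest SD of the 10 exons at 4.45 points. App, the amyloid precursor protein, included its 54-base exon in 60.1%, 58.0% and 56.3%. Rtn3, a shaper of the endoplasmic reticulum, had 44.0%, 44.8% and 39.9%, and Sh3glb2, an endophilin, had 43.5%, 43.9% and 45.2% at its 15-base exon. The inclusion of the Sh3glb2 exon differed by less than 2 points between mice.

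Eif4h, a partner of the RNA helicase of translation initiation, included its 60-base exon in 74.6%, 71.4% and 68.2%. Glb1l2, related to the beta-galactosidases, had 71.0%, 69.6% and 69.4%. Art3, an ADP-ribosyltransferase homolog, had the lowest inclusion of the 10, at 23.0%, 27.6% and 25.3%. In each of the 10 exons the Wilson 95% intervals of the mice overlapped.

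**Figure D5:**
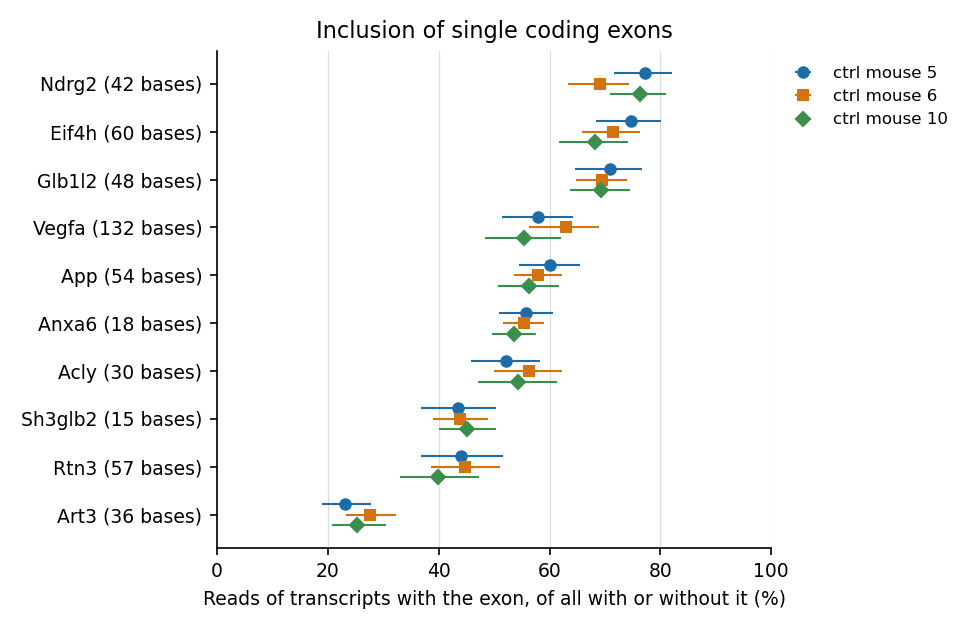
Inclusion of 10 coding exons (horizontal, reads of all transcripts with the exon as % of the reads of all transcripts that include or skip it) in ctrl mice 5, 6 and 10, with Wilson 95% intervals. Inclusion runs from Art3 (23.0% to 27.6%) to Ndrg2 (69.1% to 77.2%), and the intervals of the 3 mice overlap in each gene.

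The estimated spread of gene levels between mice depended on the method. The biological coefficient of variation of edgeR, the spread between mice beyond counting error, had a median of 9.78% over 8934 genes that passed its filter. The same dispersion estimated by DESeq2 gave a median of 21.3%, and edgeR without the filter gave 15% over 20449 genes. With 3 mice edgeR draws the value of each gene toward the common trend, so the per-mouse levels are given. Among the 3790 genes with at least 50 reads on average, 10% were at or below 9.42% and 10% at or above 11.8%.

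The genes with the highest spread between mice differed in which mouse stood apart. Thbs1, the matrix protein thrombospondin, had 36.3, 18.7 and 190 CPM, high in mouse 10 alone. Rbp7, a retinol-binding protein of endothelium and fat, had 58.7, 71.8 and 170 CPM, also highest in mouse 10. The plasma cell genes Igkc, the immunoglobulin kappa constant region, and Jchain, which joins antibody units, had 410, 159 and 103 CPM and 115, 41.9 and 15.9 CPM. Both were highest in mouse 5, and both belong to the B cell and plasma cell list, whose sum they help to make up. Mest, an imprinted gene linked to fat cell size, had 187, 568 and 235 CPM, highest in mouse 6. Oxtr, the oxytocin receptor, had 50.2, 125 and 40.6 CPM, and Crtac1, a matrix protein, had 42.7, 77.0 and 23.0 CPM, both also highest in mouse 6. Upk3b, a mesothelial marker, had 90.8, 29.9 and 82.2 CPM, and Slpi, a secreted protease inhibitor, had 126, 55.3 and 176 CPM. Ccl11, the chemokine eotaxin, had 79.0, 25.4 and 86.6 CPM. These 3 genes were lowest in mouse 6. Upk3b is itself the highest member of the mesothelial list, and the part of that list in Slpi and Ccl11 was not tested.

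The least variable genes of that level were Sp100, a nuclear body protein, at 48.1, 47.1 and 47.7 CPM, and Preb, at 47.0, 46.3 and 46.8 CPM. Next came Abcc9, a potassium channel regulator, at 45.9, 44.9 and 45.1 CPM. At these levels the counting error of each value is larger than the differences between the mice, and these genes were picked for their low spread.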

How the data were processed

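The authors deposited raw read counts per transcript, 2 files (X1 and X2) for each of the 3 control mice; reads were aligned to GRCm38 with minimap2, per the submitters' processing notes. Not given in the sources used here were the counting tool, its annotation release and strandedness. X1 and X2 counts of a mouse differed by about sampling noise (chi-square per degree of freedom 1.02 to 1.04) and were summed. Of 52182 identifiers, 51952 matched GENCODE M21 with the same version. The other 230 were left out. Gene reads were summed over transcripts and scaled to CPM. Thinning to 50 reads used exact rarefaction, copies were found with blastn 2.17.0, and spread between mice used edgeR 4.0.16 with TMM and filterByExpr (R 4.3.3) or DESeq2 1.42.0. No group was compared, so no test was run. Computations were tested on simulated data. Named are the 25 most abundant genes, leading members of each list, the leading transcripts of each type, and genes by fixed ranks of share or spread; other list members were chosen after their values were seen. Members, lists and rules were chosen with earlier results of these data known, and the lists of ribosomal protein and nuclear oxidative phosphorylation genes were added later by gene name.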

Additional observations from a re-analysis of the deposited data

How the results depend on the processing

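No paired analysis was possible because only 1 group was described. The share of reads on protein-coding transcripts was 89.2% without mitochondrial genes and 96.1% by gene type, and 89.4% to 89.7% without 1 mouse. The first 25 genes held 26.2% per kb, 17.2% without mitochondrial reads, and 18.9% to 19.6% without 1 mouse. Transcripts per gene at 50 reads were 2.60 from X1 files, 2.52 from X2 files, 2.50 at 100 reads or more, 2.23 with single reads dropped, 2.47 without incomplete transcripts, and 2.69 to 2.77 without 1 mouse. The median dominant share was 83.6% (X1) and 84.5% (X2), 77.3% and 85.9% at minima of 20 and 200 reads, 83.0% without incomplete transcripts, 88.6% with equal coding sequences merged, 93.7% among coding transcripts only, and 79.6% to 81.0% without 1 mouse. With equal introns merged, an alternative chosen after seeing the data, it was 81.5%. Genes were chosen by all their annotated transcripts. After a merge or a removal of transcripts, genes left with only 1 form have a share of 100% by construction. The values for merged, coding and complete transcripts are therefore not directly comparable with the main value. The 2.47 transcripts per gene without incomplete transcripts carry the same limit. The share of genes with the same dominant transcript was 91.7% (X1), 92.2% (X2), 85.1% at 20 reads, 94.6% at 200 reads, and 92.5% to 92.6% when only 2 mice had to match. The cause of these shifts was not tested. Median spread was 8.67% to 11.3% without 1 mouse, 15% without a filter and 21.3% by DESeq2. At these depths a gene under 3.20 CPM in mouse 5 can be absent from its reads by counting alone, and usage says nothing of genes under 50 reads.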

Other observations

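Housekeeping machinery made up a large part of the same RNA. The 83 cytosolic ribosomal protein genes summed to 50941, 48975 and 55086 CPM, and 76 of them were at or above 100 CPM. They were led by Rpl41, at 1966, 2131 and 2541 CPM, and Rplp1, at 1699, 1488 and 1834 CPM. The 86 nuclear genes of oxidative phosphorylation summed to 33729 ± 1546 CPM, beside 57054 ± 1808 CPM for the 13 mitochondrial mRNAs. Cox8a, a cytochrome oxidase subunit, led them at 2124, 2317 and 2321 CPM. The 15 antigen presentation genes summed to 7474 ± 296 CPM, with B2m, the light chain of class I molecules, at 2804 ± 180 CPM. The 9 iron genes summed to 6971, 6850 and 6933 CPM, a spread of 61.7 CPM between mice, with Fth1 at 3292 ± 34.4 CPM and Trf, the iron carrier transferrin, at 1981 ± 105 CPM. The list holds Ftl1, the ferritin light chain, but not Ftl1-ps1, which is typed protein-coding. Ftl1-ps1 matches 94.0% of Ftl1 at 99.6% identity and had 2084 ± 92.9 CPM. How reads were divided between Ftl1 and this copy is not stated, so the iron sum is uncertain.

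The transcripts behind the reads were long. The annotated length had a median of 1858, 1831 and 1800 bases. On average over the mice, 10% of the reads were assigned to transcripts of up to 672 bases and 10% to transcripts of 4900 bases or more. These are lengths in the annotation, since the files hold no read lengths.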
